A study of Drosophila melanogaster with 52 samples.

Results

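The comparison described here asks what changed in early Drosophila melanogaster embryos when dPCIF1 was overexpressed together with HIRA instead of HIRA alone. It rests on 4 of the 52 RNA-seq libraries of the series, 2 from embryos overexpressing HIRA and dPCIF1 and 2 from embryos overexpressing HIRA, all collected 0.5 to 1 h after egg laying. The members are all genes of the deposited tables: 16680 were listed, 8974 had enough counts to be tested, and 4751 had no count in any of the 4 libraries. Both transgenes, P{uasp-myc-HIRA} and P{uasp-myc-dPCIF1}, were driven in the germline of the mothers by the maternal driver matalpha4-GAL-VP16, so the added RNA was loaded into the egg and every library holds pooled, hand-selected embryos. Wild type embryos of the same experiment were w1118, which carry neither driver nor transgene. The experiment also holds the same 3 genotypes at 1 to 1.5 h, again with 2 libraries each.

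A fertilised fly egg starts with RNA deposited by its mother and a genome that is nearly silent. During zygotic genome activation a first small set of embryonic genes is switched on in the rapid cleavage cycles, a much larger set follows around cellularization, and maternal RNAs are cleared over the same period. HIRA is a histone chaperone that places the variant histone H3.3 into chromatin outside replication. PCIF1 proteins take their name from binding the phosphorylated tail of RNA polymerase II, and mammalian PCIF1 is also an enzyme that methylates the first adenosine of capped mRNAs.

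The 4 libraries held 24540313 and 28700433 expected counts in HIRA and dPCIF1 embryos, against 18766921 and 18429677 in HIRA embryos, within a range of 16886226 to 28700433 over the 12 libraries of the experiment. Log2 CPM values (CPM being the share of a library's counts, after scaling) of the 2 replicates correlated with r = 0.9966 in HIRA and dPCIF1 embryos and 0.9958 in HIRA embryos, across genes. The cyclin gene CycB, a maternal transcript, stood at 4100 and 4165 CPM in HIRA and dPCIF1 embryos and 3884 and 3883 CPM in HIRA embryos. Markers of adult and larval tissue were low, and the summed level of the 32 such genes was 28.1 and 25.2 CPM in HIRA and dPCIF1 embryos, 40.95 and 43.6 CPM in HIRA embryos and 109.7 and 108.6 CPM in wild type embryos, with 10 of the 32 at 0. The muscle myosin gene Mhc stood at no more than 0.87 CPM in the 4 libraries, against 40.0 and 39.4 CPM in wild type. At 1 to 1.5 h the 2 HIRA libraries stood apart. The same list summed to 17.5 and 18.5 CPM in HIRA and dPCIF1 embryos of that age. It reached 267.9 and 268.1 CPM in HIRA embryos and 68.8 and 71.1 CPM in wild type. For 120 cuticle protein genes the sums were 2.20 and 2.48 CPM in HIRA and dPCIF1 embryos. They were 78.1 and 83.3 CPM in HIRA embryos and 2.15 and 2.45 CPM in wild type. At 0.5 to 1 h the cuticle genes summed to 2.03 and 1.81 CPM in HIRA and dPCIF1 embryos and 3.08 CPM in each HIRA library.

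The overexpressed genes matched the labels. CG11399, the gene of dPCIF1 (chromosome arm 3L, 20780350 to 20786197, BDGP6), had 2650 and 2610 CPM in HIRA and dPCIF1 embryos, 403 and 399 CPM in HIRA embryos and 438 and 439 CPM in wild type embryos. The groups did not overlap, and the difference was 6.56-fold (log2 2.71, SE 0.03, edgeR's quasi-likelihood adjusted p = 1.19e-21, by the Benjamini-Hochberg method). On the length-scaled TPM measure the same gene averaged 902 in HIRA and dPCIF1 embryos, 139 in HIRA embryos and 155 in wild type embryos. Hira (chromosome X, 7722119 to 7725917) was overexpressed in both, with 2076 and 2097 CPM in HIRA and dPCIF1 embryos and 2360 and 2333 CPM in HIRA embryos, against 165 and 163 CPM in wild type. It was thus 0.17 lower on the log2 scale with dPCIF1 added (log2 -0.17, SE 0.03, adjusted p = 9.02e-05), a step below the log2 fold change of 1 that a call requires here. The comparison therefore adds dPCIF1 on a HIRA level that was slightly lower, and the part of that in the other differences was not tested.

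Other parts of the transgene vectors differed between the genotypes as well. The eye colour gene w, the marker carried by such vectors, had 2918 and 2885 CPM in HIRA and dPCIF1 embryos, 1345 and 1292 CPM in HIRA embryos and 1.51 and 1.59 CPM in wild type. Its log2 fold change of 1.14 (adjusted p = 1.1e-15) passed the call. For fs(1)K10, whose 3′ end is used as the terminator of UASp vectors, the values were 726 and 654 CPM in HIRA and dPCIF1 embryos, 377 and 363 CPM in HIRA embryos and 83.3 and 84.3 CPM in wild type, a log2 difference of 0.90 that did not pass it. The tubulin gene alphaTub67C, the source of the driver's promoter, had 725 and 767 CPM in HIRA and dPCIF1 embryos and 634 CPM in both HIRA libraries. Unlike w and fs(1)K10, it was highest in wild type, at 815 and 811 CPM. Reads of w and fs(1)K10 can come from the vectors as well as from the genes themselves. The 2 overexpression genotypes also differ by the dPCIF1 transgene as an insertion, and may differ in strain background. Neither can be told apart from an effect of added dPCIF1 in these libraries.

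**Figure D1:**
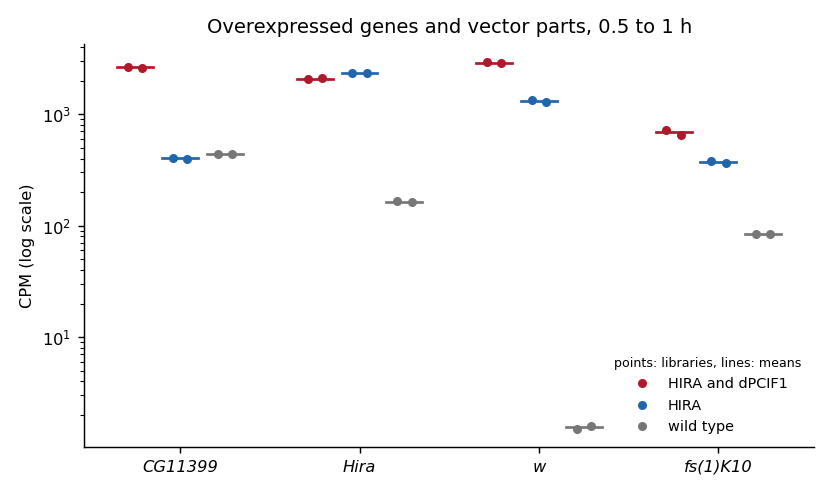
Levels of the overexpressed genes and of vector parts at 0.5 to 1 h, in CPM on a log axis. Each point is a library and each line the mean of 2 libraries, for HIRA and dPCIF1, HIRA, and wild type embryos. CG11399 is high only in HIRA and dPCIF1 embryos of the 3 genotypes, Hira lies between 2076 and 2360 CPM in the 4 overexpression libraries, and w and fs(1)K10 are highest in HIRA and dPCIF1 embryos.

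The partners of HIRA did not pass the call. The HIRA complex subunit gene yem had 393 and 395 CPM in HIRA and dPCIF1 embryos against 363 and 333 CPM in HIRA embryos (log2 0.18), the histone chaperone gene asf1 differed by -0.03, and the H3.3 genes His3.3A and His3.3B by -0.01 and 0.04 on the log2 scale. Trl, which encodes GAGA factor (GAF), a DNA binding protein that opens chromatin, had 138 and 131 CPM in HIRA and dPCIF1 embryos against 145 and 143 CPM in HIRA embryos (log2 -0.10, adjusted p = 0.0678). The gene of Zelda, vfl, the main activator of the early zygotic genome, differed by -0.05 (adjusted p = 0.265). Of the list of 17 other histone chaperone and remodeler genes none was called, with a median of -0.01, and of 16 mRNA cap enzyme and m6A genes CG11399 alone was.

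Across all tested genes the addition of dPCIF1 went with more falls than rises. Of 8974 genes, 155 (1.73%) were higher and 492 (5.48%) lower in HIRA and dPCIF1 embryos, at an adjusted p below 0.05 and an absolute log2 fold change above 1. Without the fold requirement the numbers were nearly even, with 1845 genes higher and 1686 lower, and the median log2 fold change of all tested genes was 0.007. Fitted without the libraries of 1 to 1.5 h, the counts were 136 higher and 442 lower. The called changes had a median size of 1.63 on the log2 scale for the higher and 1.59 for the lower genes. Most called genes were scarce RNAs. The median level of the 492 lower genes was 0.666 CPM in HIRA and dPCIF1 embryos, 1.97 CPM in HIRA embryos and 0.672 CPM in wild type, and 153 of them reached 5 CPM in at least 1 of the 2 groups. The median level of the 155 higher genes was 1.49 CPM in HIRA and dPCIF1 embryos, 0.401 CPM in HIRA embryos and 0.756 CPM in wild type, and 30 reached 5 CPM. In 39 of the higher and 66 of the lower genes, 1 of the 2 groups held 3 counts or fewer in each library. In bulk RNA of whole embryos, fewer cells or embryos that transcribe a gene and less RNA per cell cannot be told apart.

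**Figure D2:**
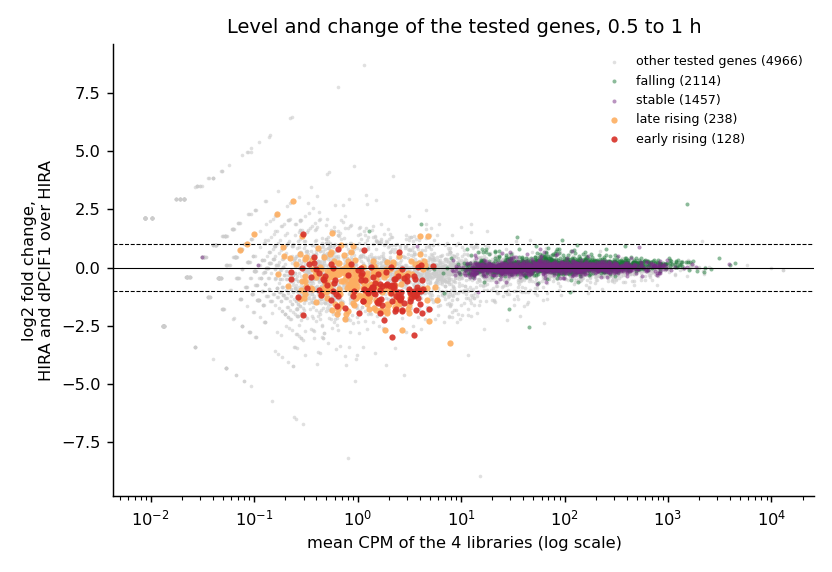
Log2 fold change of HIRA and dPCIF1 over HIRA embryos against the mean CPM of the 4 libraries (log axis), 1 point per tested gene, without the 71 tested genes that had no count in the 4. Early and late rising genes lie at low levels and mostly below 0, whereas falling and stable maternal genes lie at high levels around 0, and the dashed lines mark a log2 fold change of 1 in either direction.

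The lower genes were mainly genes that normal embryos switch on later. The series holds wild type time courses from 2 other experiments, on libraries that this comparison did not use. Of the 469 lower genes measured in both courses, 410 (87.4%) gained more than 1 on the log2 scale between 0.5 to 1 h and 2.5 to 3 h in each, against 1918 of 8769 (21.9%) of all tested genes. Of the 135 higher genes measured there, 33 (24.4%) did. From these courses genes were classed as rising (under 2 CPM at first, at least 5 CPM at 2.5 to 3 h and a log2 gain above 2), split into early rising genes, with a log2 gain above 1 by 1 to 1.5 h, and late rising ones. Maternal genes at 10 CPM or more at first were classed as falling (a log2 loss above 1) or stable (a change of at most 0.5).

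Of 128 early rising genes, 55 (43.0%) were called lower and 1 higher when dPCIF1 was added, and 114 had a fold change below 0. The class had a median of -0.93 on the log2 scale, with quartiles of -1.29 and -0.41. Each of the 4 pairings of a HIRA and dPCIF1 library with a HIRA library gave a median between -0.885 and -0.815. Pairings were compared on log2 CPM with 2 counts added per average library, which shrinks the changes of scarce genes. Summed over the class, early rising RNA was 170 and 165 CPM in HIRA and dPCIF1 embryos, 317 and 320 CPM in HIRA embryos and 69.1 and 72.7 CPM in wild type. The summed level with both genes overexpressed thus lay between the other 2 genotypes and did not overlap either. The leading members were CG34025 (log2 -2.99) and E(spl)mdelta-HLH (log2 -2.88), a bHLH repressor gene of the Notch pathway. E(spl)mdelta-HLH had 0.83 and 0.851 CPM in HIRA and dPCIF1 embryos, 6.21 and 6.27 CPM in HIRA embryos and 0.779 and 0.851 CPM in wild type, so that with dPCIF1 its values overlapped those of wild type. The member called higher was CG17122, with 23 counts in the HIRA and dPCIF1 libraries and 6 in the HIRA libraries, and it lost the call without any 1 of the 4 libraries (adjusted p from 0.0553 to 0.221).

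Of 238 late rising genes, 60 (25.2%) were lower and 4 higher, with a median of -0.54 (quartiles -1.10 and -0.12). Their summed level was 249 CPM in both HIRA and dPCIF1 libraries, 394 and 397 CPM in HIRA embryos and 182 and 181 CPM in wild type. Among them were neuroblast genes. The proneural gene ase had 0.539 and 0.886 CPM in HIRA and dPCIF1 embryos against 4.51 and 4.92 CPM in HIRA embryos (log2 -2.69, SE 0.23). The Snail family gene wor had 1.74 and 1.60 CPM in HIRA and dPCIF1 embryos against 8.28 and 8.05 CPM in HIRA embryos (log2 -2.29, SE 0.16). In wild type embryos ase was at 0.596 and 0.888 CPM and wor at 1.88 and 1.295 CPM, so both were near wild type with dPCIF1 added. The 4 late rising genes called higher, PPO1, pip, CR44179 and CG9629, were scarce, and PPO1 had 22 counts in the HIRA and dPCIF1 libraries against 2 in the HIRA libraries, with no call without HIRA replicate 1 (adjusted p = 0.0813).

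Maternal RNAs moved little, but falling genes moved mostly in 1 direction. Of 2114 falling genes 5 were higher and 4 lower, with a median of 0.09, and 1577 lay above 0. On the log2 CPM measure of the pairings, each of the 4 gave a median between 0.081 and 0.093. Their summed level was 343000 and 343800 CPM in HIRA and dPCIF1 embryos. It was 316400 and 314600 CPM in HIRA embryos and 344200 and 342500 CPM in wild type. Of 1457 stable genes 1 was lower, with a median of 0.02. The 5 higher falling genes were CG11399 itself, CG5455, the dynein heavy chain gene Dhc98D, the serine protease gene Sp7 and the neuropeptide receptor gene Dh44-R2. Sp7 had 48.1 and 51.4 CPM in HIRA and dPCIF1 embryos against 21.4 and 18.9 CPM in HIRA embryos (log2 1.31), and Dh44-R2 132 CPM in both HIRA and dPCIF1 libraries against 55.5 and 60.6 CPM in HIRA embryos (log2 1.19). The 4 lower ones were Drep-1, CG17322, Sem1 and GlcAT-S, and the stable one was CG11825, whose log2 fold change was -0.98 without HIRA replicate 2 and -1.05 with it. GlcAT-S, a glucuronyltransferase gene, was the most abundant, with 72.6 and 73.8 CPM in HIRA and dPCIF1 embryos, 148 and 155 CPM in HIRA embryos and 78.1 and 79.2 CPM in wild type (log2 -1.05, SE 0.04).

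**Figure D3:**
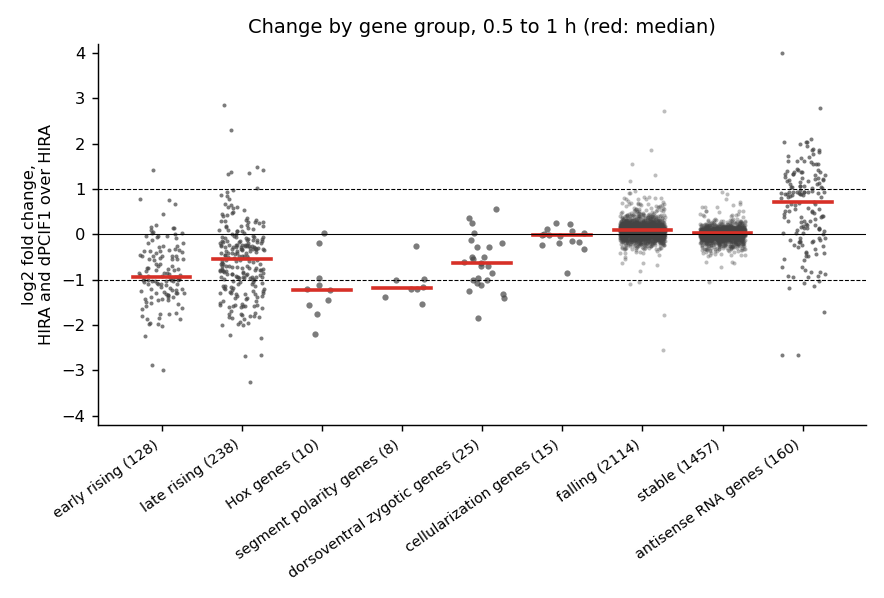
Log2 fold changes of HIRA and dPCIF1 over HIRA embryos by gene group at 0.5 to 1 h, 1 point per tested gene, with the number of genes in parentheses, the median in red and dashed lines at a log2 fold change of 1 in either direction. Values beyond 4 are drawn at 4. The medians of early rising, Hox and segment polarity genes lie near -1, those of cellularization, falling and stable genes near 0, and that of antisense RNA genes at 0.71.

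The patterning genes follow in the order in which they act in the embryo. Gap genes divide the egg into broad domains. Of 11 gap and head gap genes 3 were lower, with a median of -0.67: the head genes ems (3.24 and 2.41 CPM in HIRA and dPCIF1 embryos against 7.11 and 8.54 CPM in HIRA embryos, log2 -1.48) and btd (1.99 and 2.41 CPM in HIRA and dPCIF1 embryos against 5.41 and 5.40 CPM in HIRA embryos, log2 -1.29), and the nuclear receptor gene knrl (log2 -1.22). The central gap gene Kr had 18.8 and 17.4 CPM in HIRA and dPCIF1 embryos, 31.4 and 32.8 CPM in HIRA embryos and 9.76 and 9.69 CPM in wild type, a log2 difference of -0.83 that stayed within 1. For hb, which also has abundant maternal RNA, the log2 difference was -0.02. For kni it was -0.41 (adjusted p = 0.0268), with 6.39 and 5.07 CPM in HIRA and dPCIF1 embryos and 8.38 and 6.76 CPM in HIRA embryos, so the nearest libraries of the groups lay close together.

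Pair-rule genes, which set the striped pattern of segments, were mixed. Of 9, slp2 was lower, with 4.03 and 3.33 CPM in HIRA and dPCIF1 embryos, 11.0 and 10.6 CPM in HIRA embryos and 1.15 and 1.33 CPM in wild type (log2 -1.56). The median of the list was -0.22. The early stripe genes eve, prd and ftz had positive values of 0.46, 0.37 and 0.19, none of which passed the call. eve stood at 6.85 and 6.63 CPM in HIRA and dPCIF1 embryos against 4.72 and 5.08 CPM in HIRA embryos.

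Segment polarity genes, which pattern each segment, were lower in 5 of 8 cases, with a median of -1.17. The most abundant was ci, the transcription factor of the Hedgehog pathway, with 36.8 and 31.6 CPM in HIRA and dPCIF1 embryos, 89.2 and 88.6 CPM in HIRA embryos and 12.01 and 11.7 CPM in wild type (log2 -1.39, adjusted p = 1.31e-12). The homeobox gene en had 4.07 and 4.01 CPM in HIRA and dPCIF1 embryos against 8.70 and 9.24 CPM in HIRA embryos (log2 -1.15), and its paralog inv a log2 fold change of -1.53. The log2 fold change of inv was -0.95 without HIRA replicate 1. The paired-domain genes gsb and gsb-n gave -1.20 and -1.21, and the scarce gsb-n lost its call without HIRA replicate 1 or either HIRA and dPCIF1 replicate (adjusted p from 0.0737 to 0.258) and with DESeq2 (adjusted p = 0.141). The Wnt ligand gene wg (log2 -0.97) and hh (log2 -0.997, just short of the threshold) were not called, and the Hedgehog receptor gene ptc, the second most abundant of the list in HIRA embryos, differed by -0.25. For ptc the values were 45.2 and 40.6 CPM in HIRA and dPCIF1 embryos, 50.5 and 51.1 CPM in HIRA embryos and 10.8 and 11.8 CPM in wild type.

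Hox genes, which give segments their identity, were lower in 7 of 10 cases, with a median of -1.22. Summed over the list they had 26.2 and 25.03 CPM in HIRA and dPCIF1 embryos, 50.7 and 51.1 CPM in HIRA embryos and 17.6 and 17.9 CPM in wild type. In the bithorax complex, Ubx had 2.53 and 1.92 CPM in HIRA and dPCIF1 embryos, 7.21 and 7.78 CPM in HIRA embryos and 1.38 and 2.04 CPM in wild type. The overexpression groups did not overlap (log2 -1.76, SE 0.19, adjusted p = 6.01e-07), whereas HIRA and dPCIF1 embryos were not called different from wild type (log2 0.34, adjusted p = 0.255). abd-A had 3.61 and 4.47 CPM in HIRA and dPCIF1 embryos, 9.87 and 9.13 CPM in HIRA embryos and 2.52 and 2.81 CPM in wild type (log2 -1.22, adjusted p = 9.57e-07). Abd-B had 2.28 and 1.92 CPM in HIRA and dPCIF1 embryos, 5.41 and 4.27 CPM in HIRA embryos and 1.19 and 1.04 CPM in wild type (log2 -1.21, adjusted p = 2.16e-05).

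In the Antennapedia complex, Antp had 5.89 and 5.04 CPM in HIRA and dPCIF1 embryos, 11.3 and 12.2 CPM in HIRA embryos and 1.65 and 1.70 CPM in wild type (log2 -1.11). Scr had 1.62 and 1.77 CPM in HIRA and dPCIF1 embryos against 4.56 and 4.76 CPM in HIRA embryos (log2 -1.45). The head genes pb and lab were lower too, by -2.21 and -1.57 on the log2 scale, but both were under 1.2 CPM in every one of the 4 libraries and the HIRA libraries of lab were spread, at 0.424 and 1.19 CPM. Without HIRA replicate 2 or either HIRA and dPCIF1 replicate lab lost its call (adjusted p from 0.0699 to 0.488), and likewise with DESeq2 (adjusted p = 0.0704). Dfd (log2 -0.95) was not called. The genes zen and zen2, which lie in the complex but specify dorsal tissue and not segments, gave 0.02 and -0.19. zen had 6.89 and 6.45 CPM in HIRA and dPCIF1 embryos, 6.53 and 6.59 CPM in HIRA embryos and 7.29 and 6.85 CPM in wild type, so it was level in all 3 genotypes.

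**Figure D4:**
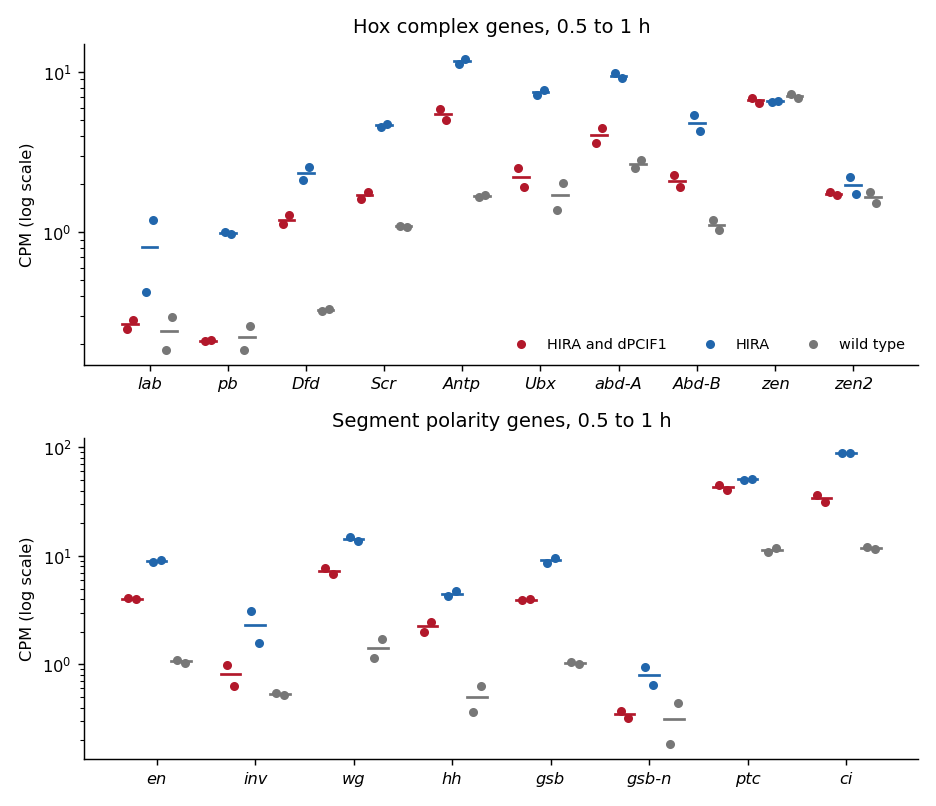
CPM (log axis) of the 10 Hox complex genes and the 8 segment polarity genes at 0.5 to 1 h, with a point per library and a line at the mean of 2 libraries. For most genes HIRA and dPCIF1 embryos lie below HIRA embryos and above wild type embryos, whereas zen lies at about 7 CPM in all 3.

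Of 25 zygotic genes of the dorsoventral axis, 8 were lower and none higher, with a median of -0.63. They were wntD, a feedback inhibitor of Toll signalling (1.41 and 1.74 CPM in HIRA and dPCIF1 embryos against 5.04 and 6.32 CPM in HIRA embryos, log2 -1.84), the GATA factor gene pnr (4.44 and 4.43 CPM in HIRA and dPCIF1 embryos against 12.2 and 11.3 CPM in HIRA embryos, log2 -1.40), the mesoderm homeobox gene tin (log2 -1.32), the T-box genes Doc1, Doc2 and Doc3 (log2 -1.25, -1.11 and -1.06), the EGF receptor ligand protease gene rho (log2 -1.01) and the homeobox gene Dr (log2 -1.004). The mesoderm determinant twi had a positive value, with 12.1 and 12.2 CPM in HIRA and dPCIF1 embryos, 9.12 and 9.94 CPM in HIRA embryos and 3.07 and 3.33 CPM in wild type (log2 0.35, adjusted p = 0.00521). The BMP ligand gene scw had 7.26 and 8.23 CPM in HIRA and dPCIF1 embryos against 5.25 and 5.30 CPM in HIRA embryos (log2 0.56). Neither passed the fold requirement. The mesoderm repressor gene sna gave -0.51 and the BMP antagonist gene sog -0.55.

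Genes of cellularization and other short early zygotic genes were not called in either direction. The 15 members had a median of -0.01. In HIRA embryos against wild type the list had moved little too, with a median of 0.12 and 2 higher. Some members were already abundant in wild type at this age. The membrane trafficking gene slam had 375 and 371 CPM in HIRA and dPCIF1 embryos, 379 and 390 CPM in HIRA embryos and 376 and 387 CPM in wild type. The gene mthl1, classed as stable, had 148.5 and 150.4 CPM in wild type. The short zygotic gene bnk had 21.2 and 19.6 CPM in HIRA and dPCIF1 embryos against 20.9 and 20.1 CPM in HIRA embryos, and nullo 5.39 and 5.11 CPM in HIRA and dPCIF1 embryos against 5.15 and 3.73 CPM in HIRA embryos. Within the list Traf4 differed by -0.84 on the log2 scale, with 28.4 and 27.0 CPM in HIRA and dPCIF1 embryos, 49.9 and 49.1 CPM in HIRA embryos and 6.55 and 5.88 CPM in wild type.

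Of 12 genes of sex determination and dosage compensation, the roX2 RNA, which guides the male X chromosome complex, was lower (log2 -1.26), but not without HIRA and dPCIF1 replicate 1 (log2 -0.91, adjusted p = 0.0587). Its partner roX1 had 79.3 and 81.0 CPM in HIRA and dPCIF1 embryos, 158 and 161 CPM in HIRA embryos and 26.1 and 27.3 CPM in wild type, and its log2 difference of -0.99 fell just short of the threshold. Of 7 cell death genes, the activators rpr (log2 -1.43) and skl (log2 -1.35) were lower, and skl lost its call without HIRA and dPCIF1 replicate 2 (adjusted p = 0.0595) or HIRA replicate 2 (adjusted p = 0.107), and with DESeq2 (adjusted p = 0.0774). The chromatin gene HmgZ had 3.73 and 3.83 CPM in HIRA and dPCIF1 embryos, 13.6 and 13.1 CPM in HIRA embryos and 1.79 and 1.70 CPM in wild type (log2 -1.82), whereas its abundant maternal paralog HmgD differed by -0.15.

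The maternal lists held almost no called gene. There was none among 18 cleavage cell-cycle genes (median 0.05), 10 egg activation and PNG kinase genes (median 0.17), 21 genes of maternal RNA repression and decay (median 0.02), 18 germ plasm genes (median 0.11) and 14 maternal axis genes (median 0.11). The germ plasm organiser osk had 1722 and 1710 CPM in HIRA and dPCIF1 embryos against 1441 and 1443 CPM in HIRA embryos, and png, a kinase subunit gene of egg activation, 78.3 and 84.8 CPM in HIRA and dPCIF1 embryos against 63.0 and 62.7 CPM in HIRA embryos. Their log2 differences of 0.25 and 0.38 were small but larger than the spread between replicates. Among 14 maternal genes of the Toll and Dorsal pathway the sulfotransferase gene pip was higher (log2 1.50), at under 1 CPM in all 4 libraries, with no call without HIRA replicate 1 (adjusted p = 0.0668). None was called among 86 cytosolic and 73 mitochondrial ribosomal protein genes, 34 proteasome subunit genes, 18 Polycomb group genes and 12 RNA polymerase II subunit genes. Replication-dependent histone genes that were tested, 24 in number, had a median of 0.44 with none called. These genes are near-identical copies whose reads can be shared out between them.

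The largest single fall was that of CG13532. It had 0.083 and 0.035 CPM in HIRA and dPCIF1 embryos, 31.2 and 30.2 CPM in HIRA embryos and 0.046 and 0.037 CPM in wild type. This was 3 counts over the HIRA and dPCIF1 libraries against 1146 over the HIRA libraries, a 535-fold ratio (95% counting interval 183 to 2597). The gene was high in the HIRA libraries of 1 to 1.5 h as well, at 36.9 and 35.2 CPM, against 0.821 and 0.726 CPM in HIRA and dPCIF1 embryos and 0.045 and 0.056 CPM in wild type. The adjacent forkhead gene fd59A was called lower too, but on few counts, with no count in HIRA and dPCIF1 embryos against 0.212 and 0.162 CPM in HIRA embryos, at least 1.50-fold lower by the floor of 3 counts in a library (adjusted p = 0.0244). On the other side PIP5K59B differed by -1.38 on the log2 scale (adjusted p = 0.0963), and the more distant genes RpL23 (0.12) and CG3501 (0.24) were not called.

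Of genes at 5 CPM or more, the next largest falls were those of Cyp6a9, CG18278, CG5096, E(spl)mdelta-HLH, yellow-c, Smvt, inaF-D and Drep-1, from -4.63 to -2.55 on the log2 scale. Cyp6a9, a cytochrome P450 gene, had 0.291 and 0.142 CPM in HIRA and dPCIF1 embryos, 5.25 and 5.46 CPM in HIRA embryos and 0.229 and 0.148 CPM in wild type. CG5096 had 1.37 and 1.56 CPM in HIRA and dPCIF1 embryos, 14.8 and 13.3 CPM in HIRA embryos and 1.01 and 1.37 CPM in wild type. In these 2 genes the HIRA libraries were the high ones, and both other genotypes were low. Some reads of CG5096 and CG18278 are divided with other genes in the deposited estimates of all 4 libraries, and some of inaF-D in 3.

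Drep-1, whose protein is related to the inhibitor of the caspase-activated DNase, showed another pattern. It had 13.9 and 12.7 CPM in HIRA and dPCIF1 embryos, 77.1 and 77.9 CPM in HIRA embryos and 57.0 and 55.8 CPM in wild type, so the HIRA and dPCIF1 libraries were the low ones. The glycosyltransferase gene CG17322 behaved likewise, at 12.8 and 13.2 CPM in HIRA and dPCIF1 embryos, 45.1 and 44.8 CPM in HIRA embryos and 46.0 and 48.02 CPM in wild type (log2 -1.79, SE 0.06).

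The heat shock RNA gene Hsromega was called among 19 heat shock genes. It had 21.6 and 19.5 CPM in HIRA and dPCIF1 embryos, 106 and 105 CPM in HIRA embryos and 21.7 and 21.1 CPM in wild type (log2 -2.36, adjusted p = 6.23e-14), so HIRA embryos were the high ones and the other genotypes overlapped. The list as a whole had a median of 0.08. Other named falls at 5 CPM or more were those of the acid nuclease gene DNaseII (log2 -2.35), the lipoprotein gene Apoltp (log2 -2.33) and ckn (log2 -2.23). The last had 9.79 and 9.64 CPM in HIRA and dPCIF1 embryos, 46.5 and 44.8 CPM in HIRA embryos and 4.72 and 4.22 CPM in wild type. CG4174 was called lower (log2 -2.52) with replicates far apart, and was no longer called without HIRA and dPCIF1 replicate 1 (adjusted p = 0.128) or HIRA replicate 2 (adjusted p = 0.241), or with DESeq2 (adjusted p = 0.343). Some reads of CG4174 are divided with other genes in all 4 libraries, and some of Hsromega in 3.

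After CG11399, the largest rises among genes at 5 CPM or more were those of Ada1-1, CR44097, CG5390, CG5455, CG17684 and CG3523, from 2.45 to 1.85 on the log2 scale. CG3523, which encodes fatty acid synthase, had 20.3 and 19.2 CPM in HIRA and dPCIF1 embryos, 5.41 and 5.51 CPM in HIRA embryos and 6.55 and 7.07 CPM in wild type (log2 1.85, SE 0.10). The gene kek1, which encodes a leucine-rich repeat inhibitor of the EGF receptor, had 6.81 and 7.02 CPM in HIRA and dPCIF1 embryos, 2.07 and 2.38 CPM in HIRA embryos and 1.05 and 1.67 CPM in wild type (log2 1.64). The septate junction gene cora had 19.1 and 18.1 CPM in HIRA and dPCIF1 embryos, 6.90 and 5.95 CPM in HIRA embryos and 10.5 and 9.99 CPM in wild type (log2 1.53). In these 3 genes the HIRA and dPCIF1 libraries stood above both other genotypes.

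In other rises the HIRA libraries were the low ones. Ada1-1, a gene of a subunit of the SAGA coactivator, had 7.51 and 8.01 CPM in HIRA and dPCIF1 embryos, 1.75 and 1.08 CPM in HIRA embryos and 7.88 and 7.36 CPM in wild type (log2 2.45). Some of its reads are divided with another gene in the deposited estimates. CG5390 had 9.34 and 9.86 CPM in HIRA and dPCIF1 embryos, 2.60 and 2.59 CPM in HIRA embryos and 15.2 and 13.3 CPM in wild type (log2 1.89). CG5455 had 6.47 and 6.49 CPM in HIRA and dPCIF1 embryos, 1.86 and 1.68 CPM in HIRA embryos and 40.1 and 38.2 CPM in wild type (log2 1.87). CR44097 was called at log2 2.23 but had HIRA libraries at 0.371 and 1.84 CPM, and lost the call without HIRA replicate 1 (adjusted p = 0.0727). Its reads are partly divided with other genes too.

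Antisense RNA genes made up 47 of the 155 higher genes. Of 160 tested, 47 (29.4%) were higher, against 1.73% of all tested genes, and 6 were lower, with a median of 0.71. Their summed level was 372 and 350 CPM in HIRA and dPCIF1 embryos, 245 and 271 CPM in HIRA embryos and 184 and 186 CPM in wild type. An example is CR45330, with 16.5 and 14.2 CPM in HIRA and dPCIF1 embryos, 4.67 and 4.54 CPM in HIRA embryos and 1.19 and 1.33 CPM in wild type (log2 1.73, SE 0.18). CR31144 had 8.01 and 6.49 CPM in HIRA and dPCIF1 embryos against 2.39 and 3.13 CPM in HIRA embryos (log2 1.39).

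The genes on the opposite strand moved little by comparison. Of 167 genes whose exons overlap an antisense RNA gene, 2 were higher and 3 lower, with a median of 0.04. Of the 45 genes opposite the higher antisense RNAs none was called, with a median of 0.09 and 33 above 0. Over all tested genes the median was 0.007, with 4604 of 8974 above 0. At 1 to 1.5 h the same 45 genes had a median of 0.32, with 2 higher, against 0.06 over all tested genes. Each antisense RNA was also taken as a share of the summed level of its opposite-strand genes, over 145 pairs. The median share was 1.68% and 1.47% in HIRA and dPCIF1 embryos, 0.803% and 0.796% in HIRA embryos and 0.478% and 0.611% in wild type. The same order held at 1 to 1.5 h, at 1.95% and 2.25% in HIRA and dPCIF1 embryos, 1.35% and 1.04% in HIRA embryos and 0.536% and 0.692% in wild type. The value of 2.25% rests on 143 pairs. The library kit kept strand, but the strand setting used in counting is not given in the sources used here. Without it, reads from an antisense gene and its partner cannot be told apart. Over all called genes, 89 of the 155 higher (57.4%) and 91 of the 492 lower (18.5%) overlapped an exon on the other strand, against 35.9% of all tested genes. Among genes with no such overlap 66 were higher and 401 lower.

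**Figure D5:**
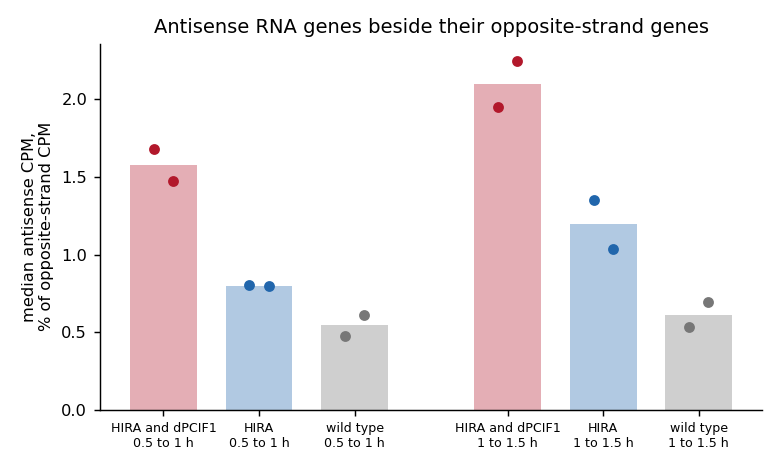
Median CPM of antisense RNA genes as a percentage of the summed CPM of the tested genes on the opposite strand, by genotype and stage. The median is over 145 pairs, or 143 in HIRA and dPCIF1 replicate 2 of 1 to 1.5 h. Each point is a library and each bar the mean of 2 libraries. HIRA and dPCIF1 embryos are highest at both stages, at 1.68% and 1.47% at 0.5 to 1 h, and wild type embryos lowest.

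Long noncoding RNA genes that are not annotated as antisense went mostly the other way, with 7 of 151 higher, 20 lower and a median of -0.47. Of 106 small nuclear and nucleolar RNA genes 8 were lower (7.55%, near the 5.48% of all tested genes) and 1 higher, with a median of -0.33. The 4 leading members, snoRNA:Psi28S-3385b, snRNA:U5:34A, snoRNA:Psi18S-1347c and snoRNA:lola-a, lost their calls with DESeq2 (adjusted p from 0.117 to 0.241), and each did so without at least 3 of the 4 libraries in turn. The labels name polyA RNA where the protocol gives depletion of ribosomal RNA, and levels of RNAs with no poly(A) tail, these and the replication-dependent histone RNAs, depend on which was used.

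Eggshell genes, which are transcribed in the follicle cells around the egg and not in the embryo, were called in both directions. Of 14 tested of 21, 5 were higher and 5 lower. Cp36 had 4.19 and 4.89 CPM in HIRA and dPCIF1 embryos, 18.3 and 19.4 CPM in HIRA embryos and 0.825 and 0.629 CPM in wild type (log2 -2.04), and Cp38 5.89 CPM in both HIRA and dPCIF1 libraries against 22.7 and 22.3 CPM in HIRA embryos (log2 -1.93). Cp15 went the other way, with 8.26 and 7.38 CPM in HIRA and dPCIF1 embryos, 1.75 and 3.03 CPM in HIRA embryos and 1.19 and 1.15 CPM in wild type (log2 1.71). Cp19 had 2.12 and 2.20 CPM in HIRA and dPCIF1 embryos against 0.424 and 0.054 CPM in HIRA embryos (log2 3.14). Summed over the 21 genes, eggshell RNA was 28.3 and 29.2 CPM in HIRA and dPCIF1 embryos, 51.3 and 54.2 CPM in HIRA embryos and 7.75 and 8.44 CPM in wild type. The part of this material in the other differences was not tested. Of 11 yolk protein and fat body genes 5 were tested and none was called, and of 12 tested adult and larval tissue genes the muscle actin genes Act57B (log2 1.66) and Act87E (log2 -1.07) were.

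By chromosome, 80 tested genes of chromosome 4 had a median of -0.22, with 6 lower (7.50%, against 5.48% of all tested genes) and none higher, whereas the medians of the other arms lay between 0.00 and 0.02. Lower protein-coding genes were long, with a median span of 5008 bp over 456 genes, against 2995 bp over all 8523 tested and 3790 bp over the 99 higher. Single-exon genes made up 12.7% of the lower and 9.94% of all.

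Set beside wild type, each overexpression genotype gives its own values, from comparisons that share their libraries with the one above. Against wild type, HIRA and dPCIF1 embryos had 624 genes higher (6.95%) and 533 lower (5.94%), and HIRA embryos 867 higher (9.66%) and 466 lower (5.19%). Without the fold requirement these were 2054 higher and 2031 lower in HIRA and dPCIF1 embryos, and 1897 higher and 2256 lower in HIRA embryos, so that in HIRA embryos the balance turned. The early rising class had a median of 1.17 in HIRA and dPCIF1 embryos against wild type, with 69 of 128 called higher and 1 lower, and of 2.13 in HIRA embryos against wild type, with 113 higher. For late rising genes the median was 0.46 in HIRA and dPCIF1 embryos, with 57 higher and 17 lower, and 1.12 in HIRA embryos, with 121 higher and 13 lower. Hox genes had a median of 0.47 in HIRA and dPCIF1 embryos against wild type, with 2 of 10 higher, and of 2.10 in HIRA embryos against wild type, with 8 higher. Segment polarity genes had a median of 1.92 in HIRA and dPCIF1 embryos, with 6 of 8 higher, and 2.99 in HIRA embryos, with all 8 higher. In both genotypes most of these genes were thus above or near wild type, and nearer to it with dPCIF1 added.

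The age of the embryos within the collection window bears on such scarce RNAs. In wild type, 559 tested genes were higher (6.23%) and 171 lower (1.91%) at 1 to 1.5 h than at 0.5 to 1 h, or 1213 higher and 1411 lower without the fold requirement. Of the 492 genes lower with dPCIF1 271 were among those higher with age in wild type. Falling maternal genes had a median of -0.09 with age in wild type and of 0.09 with dPCIF1 added. A difference in embryo age within the window and an effect of the added gene cannot be told apart in these libraries.

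The same contrast at 1 to 1.5 h uses 4 other libraries. There 412 genes were higher (4.59%) and 1529 lower (17.0%) in HIRA and dPCIF1 embryos against HIRA embryos. The HIRA libraries of that age had the highest sums of cuticle RNA and of adult and larval tissue RNA among the 12. Of eggshell RNA the HIRA and dPCIF1 libraries of that age had the highest sums. Without the fold requirement more genes were higher, 3670, than lower, 2613. Of the genes lower at 0.5 to 1 h, 425 were lower again, which is 86.4% of the 492 and 27.8% of the 1529. Of the higher genes, 91 were higher again, 58.7% of the 155 and 22.1% of the 412. Across all 8974 genes the fold changes of the 2 stages had Pearson r = 0.19 and Spearman rho = 0.54, as a description, since genes are not independent replicates.

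By group, the early rising class had a median of -1.46 at 1 to 1.5 h, with 98 of 128 lower, and the late rising class -1.49, with 169 of 238 lower and 1 higher. Early rising genes summed to 215 and 209 CPM in HIRA and dPCIF1 embryos, 615 and 603 CPM in HIRA embryos and 225 and 218 CPM in wild type at that stage, so that with dPCIF1 they were level with wild type or just below it. Hox genes summed to 37.6 and 38.3 CPM in HIRA and dPCIF1 embryos, 142 and 141 CPM in HIRA embryos and 47.6 and 45.8 CPM in wild type, and all 10 were lower than in HIRA embryos, zen and zen2 included. Cellularization genes, level at the earlier stage, had a median of -0.90 with 6 of 15 lower. Falling maternal genes had a median of 0.42, with 217 higher. CG11399 itself stood at 2703 and 2716 CPM in HIRA and dPCIF1 embryos and 379 and 388 CPM in HIRA embryos, while Hira had 1995 and 2031 CPM in HIRA and dPCIF1 embryos and 1751 and 1801 CPM in HIRA embryos, the reverse of its order at 0.5 to 1 h.

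The difference between the stages was tested as an interaction in the same fit. It was positive in 199 genes (2.22%) and negative in 652 (7.27%) at an adjusted p below 0.05 and an absolute value above 1. Without the fold requirement the balance was the reverse, with 2416 genes positive and 1011 negative. The interaction was negative for abd-A (log2 -1.59, adjusted p = 2.14e-06), Abd-B (log2 -1.64) and Ubx (log2 -0.84, adjusted p = 0.0211, within 1), so their fall was larger at the later stage. The later contrast rests on the HIRA libraries with high cuticle RNA, and the part of that material in the interaction was not tested. For Hsromega it was -1.60 (adjusted p = 2.8e-09), with a log2 fold change of -3.96 at 1 to 1.5 h.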

How the data were processed

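Embryos of each genotype and stage gave 2 libraries, which the study's methods call biological replicates. RNA was extracted with TRIzol, depleted of ribosomal RNA and made into strand-specific libraries, per the protocol, although the labels name polyA RNA. Per the study's methods, Trimmomatic (0.39) was used for trimming, STAR (2.7.10a) for alignment to dm6 and RSEM (1.3.1) for estimates per gene. The deposited expected counts were rounded to whole numbers and used as counts, and the deposited TPM was used for levels per length. Genes were kept by filterByExpr (10 counts, 15 in total) and fitted with edgeR (4.0.16, R 4.3.3, limma 3.58.1), using TMM scaling and the quasi-likelihood test over the 12 overexpression libraries. Calls needed an adjusted p below 0.05 over all 8974 genes and an absolute log2 fold change above 1, and SE is the fold change over the root of the F statistic. Fold changes are of fitted values, and CPM is scaled by TMM. Intervals cover counting error only.

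Genes named were the largest called changes at 5 CPM or more in each direction, up to 4 leading members of each list, and genes the study names, 133 in all. Where a list is short its called members are all named, and eve, prd, ftz, scw, sna, sog, bnk, nullo, Traf4, ptc, png, roX1, HmgD, fd59A and PIP5K59B were chosen after their values were seen. Kr, hb, wg, hh, Dfd, zen, zen2, mthl1, alphaTub67C, Mhc, RpL23 and CG3501 were likewise named outside these rules. The members and lists were chosen with earlier results of these data known. Symbols matched the annotation for 16624 of 16680 genes, and no sequence is printed. On simulated counts for this comparison edgeR recovered 197 of 200 changed genes over 8498 genes, with 0 false calls. The planted changes were 1.5 or 2.5 on the log2 scale, in genes with a mean above 1 CPM. Recovery of scarcer genes and of smaller changes was not tested. Alternatives included DESeq2 (1.42.0), other scalings and filters, fewer libraries and each replicate left out.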

Additional observations from a re-analysis of the deposited data

Results flagged for a closer look

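Of the 133 genes chosen by rule, 61 had a change with dPCIF1 added that differed between the stages at an adjusted p below 0.05 in the interaction test. In 9 of these, TwdlM, TwdlF, Osi2, verm, PPO1, Cp19, Vm34Ca, CG13532 and CG17122, a group held 3 counts or fewer in each library, so no difference is given. The values of the other 52 are the log2 fold change at 1 to 1.5 h minus that at 0.5 to 1 h. They were positive in 28 genes and negative in 24, and in 16 genes the fold changes of the stages had opposite signs. Their causes were not tested.

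Among markers of other tissues, the difference was -10.09 for Act57B (adjusted p = 2.71e-13), -3.28 for Rfabg and -1.51 for Act87E. Act57B had 0.173 and 0.303 CPM in HIRA and dPCIF1 embryos of 1 to 1.5 h against 81.5 and 79.2 CPM in HIRA embryos. Those HIRA libraries had the highest sums of cuticle RNA and of adult and larval tissue RNA. In wild type of 0.5 to 1 h Act57B had 40.5 and 41.8 CPM. The eggshell genes went the other way, with 7.36 for Cp36, 7.17 for Cp38, 5.85 for Cp15 and 3.91 for yellow-g. At 1 to 1.5 h Cp36 had 17.9 and 16.5 CPM in HIRA and dPCIF1 embryos and 0.42 and 0.435 CPM in HIRA embryos, the opposite order to that at 0.5 to 1 h.

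Among zygotic and patterning genes the difference was -3.05 for roX2, -2.42 for gsb-n, -1.64 for Abd-B, -1.59 for abd-A, -1.23 for inv, -1.23 for twi, -1.07 for Scr, -0.84 for Ubx, -0.61 for kni, -0.53 for slam, -0.53 for Doc1 and -0.25 for ci. It was 1.63 for CG34025, whose fall was smaller at 1 to 1.5 h. Of these genes twi had opposite signs at the stages, with log2 fold changes of 0.35 at 0.5 to 1 h and -0.87 at 1 to 1.5 h.

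Of other genes called at 0.5 to 1 h, it was -6.91 for pip, -3.15 for CR44097, -1.83 for Apoltp, -1.71 for cora, -1.60 for Hsromega, -1.21 for CG9629 and -1.14 for CG3523. Among these, pip, CR44097 and cora were higher in HIRA and dPCIF1 embryos at 0.5 to 1 h and had negative values at 1 to 1.5 h, of -5.42, -0.92 and -0.18. The difference was positive for CG4174 (3.99, adjusted p = 0.0379), Cyp6a9 (3.32), Sem1 (1.52), CR43430 (0.84), Smvt (0.70), Sp7 (0.36), CG17322 (0.28) and GlcAT-S (0.16).

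Among the overexpressed genes, their vectors and their partners, it was 0.59 for asf1, 0.46 for yem, 0.35 for Hira, 0.18 for fs(1)K10, 0.11 for CG11399 and -0.14 for His3.3A. Maternal genes had 0.99 for exu, 0.89 for mtrm, 0.54 for osk, 0.48 for Hsp83, 0.30 for tral and -0.28 for vfl. Genes of other lists had 0.69 for Rpn1 and 0.41 for Rpn2 (proteasome), 0.25 for Nap1 (histone chaperone), 0.24 for mRpS5 (mitochondrial ribosome) and 0.24 for Rel (immune).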

How the results depend on the processing

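No called value changed sign under any alternative run. Of the results that answer a comparison, 132 values stayed on the same side or within 1.5 times under an alternative and 21 moved. The number of higher genes, 155, was 87 with a filter of 1 CPM, 100 with DESeq2, 276 with a 1.5-fold threshold, 1845 without one (1686 lower) and 66 among genes with no exon overlap on the opposite strand, an alternative chosen after seeing the data. Lower genes, 492 in the main run, numbered 332 with the 1 CPM filter and 365 with DESeq2. With the 1 CPM filter, genes lower than wild type numbered 97 in HIRA and dPCIF1 embryos, in place of 533, and 76 in HIRA embryos, in place of 466. Fewer genes are tested under that filter. The median of early rising genes was -0.96 with library sizes only, -1.02 with the 1 CPM filter, -0.99 with the 4 libraries alone and -0.97 with the 6 of 0.5 to 1 h, and that of late rising genes -0.57, -0.80, -0.65 and -0.57. Of genes rising on either time course 215 of 763 (28.2%) were lower, against 31.4% of the 366 rising on both.

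Without 1 library, the higher calls ranged from 121 to 140 and the lower from 406 to 465, early rising calls from 43 to 55, late rising from 55 to 62, Hox calls from 6 to 8, the early rising median from -0.94 to -0.87 and the late rising median from -0.58 to -0.50. Same-numbered replicates did not deviate together (correlations from -0.0903 to 0.0832). With a replicate block 148 genes were higher and 486 lower, 53 early rising, 60 late rising and 7 Hox genes were lower, and CG17122 lost its call (adjusted p = 0.0549). Single named genes lost a call in 65 of the cases run. With 2 libraries a group, p-values measure the spread between these libraries only, and at under 1 CPM a library holds few counts per gene.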
